A study of Mus musculus with 6 samples.

Results

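Signals of 10 genes of the circadian clock were compared in the epididymal white fat of wild-type mice and of mice whose adipocytes lack CNOT3, a core subunit of CCR4-NOT, a complex that removes poly(A) tails from mRNAs. The genes are Arntl, Npas2, Clock, Per2, Per3, Ciart, Nr1d2, Dbp, Tef and Hlf, and every probe set with 1 of these names as its only gene symbol was taken, which gave 27 of the 45037 probe sets on the array, for 10 of 18193 named genes. The genes were chosen from earlier results of these same arrays, with their knockout against wild-type values in view. Their differences between the groups are therefore given as a description, with no test.

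There were 2 groups of 3 mice on the C57BL/6 background, all aged 8 weeks, with 1 Affymetrix array of whole fat pad RNA per mouse. CNOT3KO mice expressed Cre from the adiponectin promoter, an adipocyte promoter, to delete Cnot3. The WT mice are labelled as wild type, and neither their Cre and floxed allele status nor the time of day of tissue collection is given in the sources used here. Each mouse was sampled once, so a difference between genotypes and a difference in the time of collection cannot be told apart, nor can a shift of phase and a change of amplitude.

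The mammalian clock is a loop of transcription factors. ARNTL (BMAL1) pairs with CLOCK or its relative NPAS2 and binds E-boxes to switch on the Per and Cry genes, Ciart, the Rev-erb genes Nr1d1 and Nr1d2, and the PAR bZIP genes Dbp, Tef and Hlf. PER and CRY proteins and CIART then repress ARNTL and CLOCK, REV-ERB proteins repress Arntl and Npas2 through RORE sequences that ROR proteins activate, and PAR bZIP proteins bind D-boxes in output genes and in some clock genes. In fat, as in other tissues, Arntl mRNA normally peaks at the opposite time of day from Dbp and the Per genes.

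Promoter sequences are shown for 4 of the genes, because they hold the elements through which clock factors act on each other. RefSeq promoters of the build GRCm38.p6, from 250 bases before to 50 bases after a start site, were found for 9 of the 10 genes (13 promoters), all but Per2. They were searched on both strands for the E-box CACGTG, the related CACGTT, the D-box (TTATGTAA or TTACGTAA), the RORE (ANTAGGTCA or ANTGGGTCA) and the cAMP response element TGACGTCA, and 0 matches overlapped. Matches are in capitals in the sequences, which are written 5′ to 3′ on the strand of the gene.
Ciart, chr3:95882179-95882478, minus strand: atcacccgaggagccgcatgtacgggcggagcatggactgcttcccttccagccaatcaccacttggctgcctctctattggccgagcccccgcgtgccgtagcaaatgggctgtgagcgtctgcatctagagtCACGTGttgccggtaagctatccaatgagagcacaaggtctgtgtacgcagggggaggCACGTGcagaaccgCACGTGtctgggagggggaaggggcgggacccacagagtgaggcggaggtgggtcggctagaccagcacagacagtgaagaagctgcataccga
Tef, chr15:81802423-81802722, plus strand: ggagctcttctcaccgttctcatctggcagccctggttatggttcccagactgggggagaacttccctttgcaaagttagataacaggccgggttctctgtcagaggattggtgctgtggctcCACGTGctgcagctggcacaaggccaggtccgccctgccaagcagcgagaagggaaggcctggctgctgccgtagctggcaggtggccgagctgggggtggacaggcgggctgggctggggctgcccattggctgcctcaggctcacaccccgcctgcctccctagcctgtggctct
Per3, chr4:151044616-151044915, minus strand: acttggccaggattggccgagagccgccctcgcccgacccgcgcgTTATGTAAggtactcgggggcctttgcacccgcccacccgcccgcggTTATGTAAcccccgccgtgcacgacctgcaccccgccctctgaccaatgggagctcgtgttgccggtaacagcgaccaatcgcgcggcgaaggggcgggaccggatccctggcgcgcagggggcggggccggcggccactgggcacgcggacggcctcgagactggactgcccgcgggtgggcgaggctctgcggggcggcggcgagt
Arntl, chr7:113207261-113207560, plus strand: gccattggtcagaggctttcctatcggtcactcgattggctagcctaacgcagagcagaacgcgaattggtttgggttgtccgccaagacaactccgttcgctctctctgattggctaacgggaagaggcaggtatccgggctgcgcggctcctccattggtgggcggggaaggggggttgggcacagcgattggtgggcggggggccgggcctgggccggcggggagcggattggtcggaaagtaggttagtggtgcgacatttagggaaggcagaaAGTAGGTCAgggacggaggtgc

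Ciart held 3 E-boxes, with first bases at -116, -58 and -44 relative to the start. Both Tef promoters held 1 E-box each, at -127 in the one shown and at -138 in the other. An E-box was present in 7.15% of all 32851 promoters of this length. Per3 held 2 copies of the D-box TTATGTAA, at -205 and -158, while 1.06% of all promoters held a D-box of either form. Arntl held a RORE at base 29 after the start of 1 of its 2 promoters, against 1.45% of all promoters. Hlf held a cAMP response element at -9, against 1.79% of all. The promoters of Npas2, Clock, Dbp and Nr1d2 held none of these letters within the window, and CACGTT was in 0 of the 13, against 4.68% of all promoters. These are matches of letters in a short window, and binding was not measured.

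In the knockout fat pad Arntl and Npas2 read higher than in WT, the 7 repressor and output genes read lower, and the groups overlapped for Clock. By the brightest probe set of each gene, the 3 CNOT3KO arrays lay wholly above the 3 WT arrays for 2 genes, wholly below them for 7, and overlapped them for Clock. Over all 27 probe sets, 3 were wholly higher, 15 wholly lower and 9 overlapped. Of all 45037 probe sets on the array, 15.7% were wholly higher and 19.4% wholly lower, and since the genes were picked on this contrast nothing is read from the members' counts. Signals are MAS5 intensities in linear units. Log2 differences are CNOT3KO minus WT of log2(signal + 22.5), with standard errors (SE) from limma fitted over all probe sets.

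**Figure D1:**
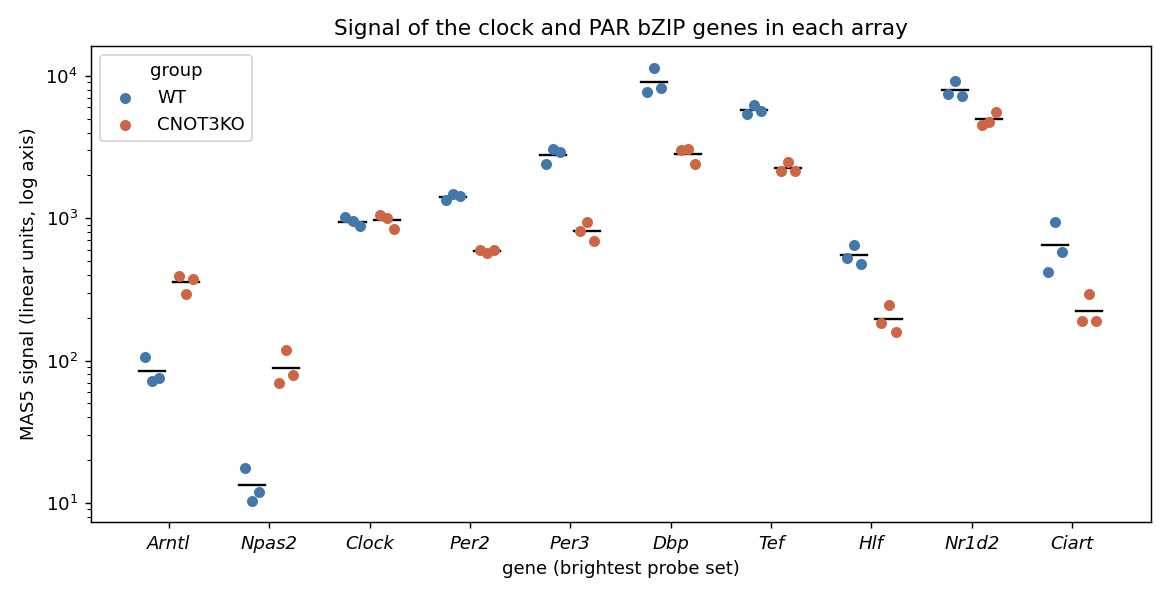
MAS5 signal (linear units on a log axis) of the brightest probe set of each of the 10 genes in each array, 3 WT (blue) and 3 CNOT3KO (orange) mice, with a bar at each group mean. CNOT3KO points lie wholly above WT for Arntl and Npas2, wholly below for the 7 genes Per2, Per3, Dbp, Tef, Hlf, Nr1d2 and Ciart, and overlap for Clock.

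Arntl, the activator without which the loop stops, read 106, 71.4 and 75.9 in the 3 WT arrays and 394, 295 and 375 in the CNOT3KO arrays. The lowest knockout array was 2.79 times the highest WT array. The means were 84.4 ± 18.8 and 354 ± 52.3 (SD, n = 3 each), a log2 difference of 1.82 (SE 0.19), or 3.54-fold. The second Arntl probe set was dim, at 60.3 ± 30.02 in WT and 64.1 ± 15.9 in CNOT3KO, and its groups overlapped (log2 0.11, SE 0.30). The mean of both probe sets gives a log2 difference of 0.96. The bright one is of type _a, so the dim one alone is read when probe set types _a, _s and _x are avoided.

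Npas2, which can stand in for CLOCK beside ARNTL, read 17.6, 10.4 and 11.8 in WT and 69.8, 118 and 79.0 in CNOT3KO. All WT values lay under 22.5, the 25th percentile of all signals, and all knockout values above it. The log2 difference was 1.62 (SE 0.24) here, 2.65 with an offset of 1 and 0.79 with one of 88.5. Its mean over the arrays, 51.1, fell just short of the 51.6 needed to enter the test across genes, and it was the only one of the 10 that did not enter. The other Npas2 probe set was near the lower end of the scale, at 6.69, 3.75 and 4.66 in WT and 3.99, 9.53 and 42.1 in CNOT3KO, and its groups overlapped.

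Clock, the partner of ARNTL, is known to cycle weakly or not at all in most tissues. Its brightest probe set read 1014, 953 and 878 in WT and 1052, 1006 and 838 in CNOT3KO, and the groups overlapped. The log2 difference was 0.02 (SE 0.12) and changed sign in 7 of 19 other settings, staying between -0.08 and 0.12. Member values in these settings are differences of group means. Settings of the filter, variance trend, array weights and replicate block therefore could not move it. The next probe set was higher in every knockout array by a narrow margin, with 433, 434 and 463 in WT against 491, 558 and 476 (log2 0.19, SE 0.11). The others overlapped, at 0.07 (SE 0.11) and, for the dimmest, -0.38 (SE 0.32). None of the 4 probe sets showed a difference of the size of the bright Arntl probe set.

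Per2, a repressor that joins CRY proteins to shut off its own transcription, read 1336, 1490 and 1422 in WT and 600.3, 566 and 601 in CNOT3KO. The 3 knockout values lay close together, under every WT value. The means were 1416 ± 77.2 and 589 ± 19.9 (SD, n = 3 each), a log2 difference of -1.23 (SE 0.09), or 42.5% of WT. A second bright probe set gave a larger difference, from 692, 766 and 841 to 211, 225 and 199 (log2 -1.75, SE 0.12). A dim one overlapped (78.03 ± 10.5 against 61.4 ± 23.5).

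Per3, a relative of Per2 and a strongly rhythmic transcript in most tissues, was measured by 6 probe sets. The brightest read 2409, 3047 and 2941 in WT and 811, 940 and 696 in CNOT3KO, with means of 2799 ± 342 and 816 ± 122 (SD, n = 3 each). Each knockout array was below each WT array, by a factor of at least 2.56, and the log2 difference was -1.75 (SE 0.14), or 29.7% of WT. Per3 ranked 45 from the lowest among the 12769 genes tested, the lowest place of the 9 that were tested. Of its other probe sets 4 were also wholly lower, with log2 differences from -1.61 (SE 0.17) to -0.76 (SE 0.20), and the dimmest overlapped (63.5 ± 20.6 against 43.4 ± 22.3). The mean of all 6 gives -1.16.

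Ciart, also called CHRONO, a repressor of ARNTL and CLOCK, read 418, 937 and 576 in WT and 190.2, 293 and 189.6 in CNOT3KO. Its groups did not overlap, but by brightest probe sets WT mice spread more than for the other 9 genes, with an SD of 0.57 on the log2 scale. The log2 difference was -1.38 (SE 0.28), and it was -1.08 without WT mouse 2 and -1.64 without WT mouse 1.

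Nr1d2 encodes REV-ERBβ, which represses Arntl and Npas2 through the RORE. It read 7460, 9235 and 7248 in WT and 4539, 4724 and 5592 in CNOT3KO, with means of 7981 ± 1091 and 4952 ± 562 (SD, n = 3 each). The groups were separate, but the log2 difference of -0.68 (SE 0.13), or 62.3% of WT, was the smallest of the 7 lower genes. A dim second probe set gave -0.62 (SE 0.28) with overlapping groups.

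The PAR bZIP factors Dbp, Tef and Hlf, activators of D-box genes that carry the rhythm on to metabolism, were lower by similar amounts. Dbp read 7749, 11441 and 8175 in WT and 3019, 3077 and 2409 in CNOT3KO, a log2 difference of -1.66 (SE 0.17), or 31.5% of WT. Its second probe set, with 4184, 6744 and 5507 against 1682, 2211 and 1648, gave -1.54 (SE 0.19). Both Dbp probe sets thus put each knockout array below each WT array.

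Tef read 5363, 6279 and 5653 in WT and 2145, 2496 and 2134 in CNOT3KO (log2 -1.34, SE 0.11, or 39.4% of WT). A much dimmer Tef probe set gave almost the same difference, -1.35 (SE 0.17), from 288, 261 and 343 to 90.8, 115 and 103. The dimmest, with 149.6, 101 and 135 in WT and 109.9, 39.4 and 93.4 in CNOT3KO, overlapped (log2 -0.60, SE 0.31). Hlf read 528, 648 and 480 in WT and 184, 245 and 158 in CNOT3KO (log2 -1.40, SE 0.18). Its second probe set gave -1.93 (SE 0.19), from 473, 459 and 480 to 94.4, 150.3 and 85.5, the lowest value among the 27 probe sets. Over the 6 PAR bZIP probe sets whose groups were separate, log2 differences ran from -1.93 to -1.34.

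Apart from Clock, probe sets whose groups overlapped were dim. Outside that gene, the 6 probe sets with overlapping groups had mean signals between 11.8 and 113, while the 15 that were wholly lower had means between 172 and 6466. The 2 that were wholly higher had means of 51.1 (Npas2), within the range of the overlapping ones, and 219 (Arntl). Where on the transcripts these probe sets lie was not analysed here.

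**Figure D2:**
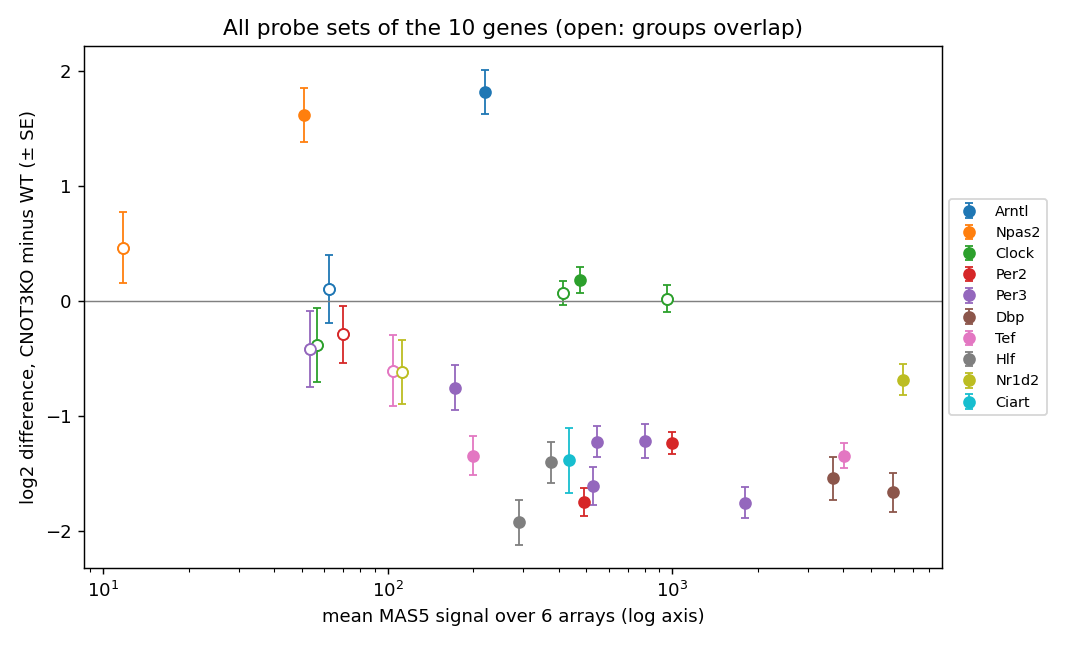
Log2 difference (CNOT3KO minus WT, with SE) of all 27 probe sets of the 10 genes against their mean MAS5 signal over 6 arrays on a log axis. Open circles mark probe sets whose groups overlap, and apart from Clock these lie at mean signals of 113 or less.

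The position of each mouse within its group was followed over these genes by their brightest probe sets. In WT, mouse 2 had the highest signal of all 7 lower genes and the lowest signal of Arntl and Npas2. In CNOT3KO, mouse 2 had the highest signal of 5 of the 7 (Per3, Dbp, Tef, Hlf and Ciart) and the lowest of Arntl, but it had the highest signal of Npas2 (118) and the lowest of Per2 (566). Mouse 3 was the highest knockout mouse for Per2 and Nr1d2. Other probe sets did not all keep this order. Of the 15 member probe sets wholly lower in CNOT3KO, WT mouse 2 was highest in 10 and WT mouse 3 in 5. CNOT3KO mouse 2 was highest in 13 of them. The second Hlf probe set was lowest in WT mouse 2 (459), and the second bright Per2 probe set was highest in CNOT3KO mouse 2 (225). Of the 2897 tested genes that were wholly lower in CNOT3KO, WT mouse 2 was the highest WT mouse in 36.4% and CNOT3KO mouse 2 the highest knockout mouse in 40.6%. Dbp of the highest knockout mouse (3077) stayed under that of the lowest WT mouse (7749). Without mouse 2 of both groups the log2 difference was 1.85 for Arntl, 1.38 for Npas2, -1.17 for Per2, -1.79 for Per3, -1.27 for Ciart, -0.54 for Nr1d2, -1.55 for Dbp, -1.35 for Tef and -1.44 for Hlf. The labels do not say that mice of the same number were handled together.

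**Figure D3:**
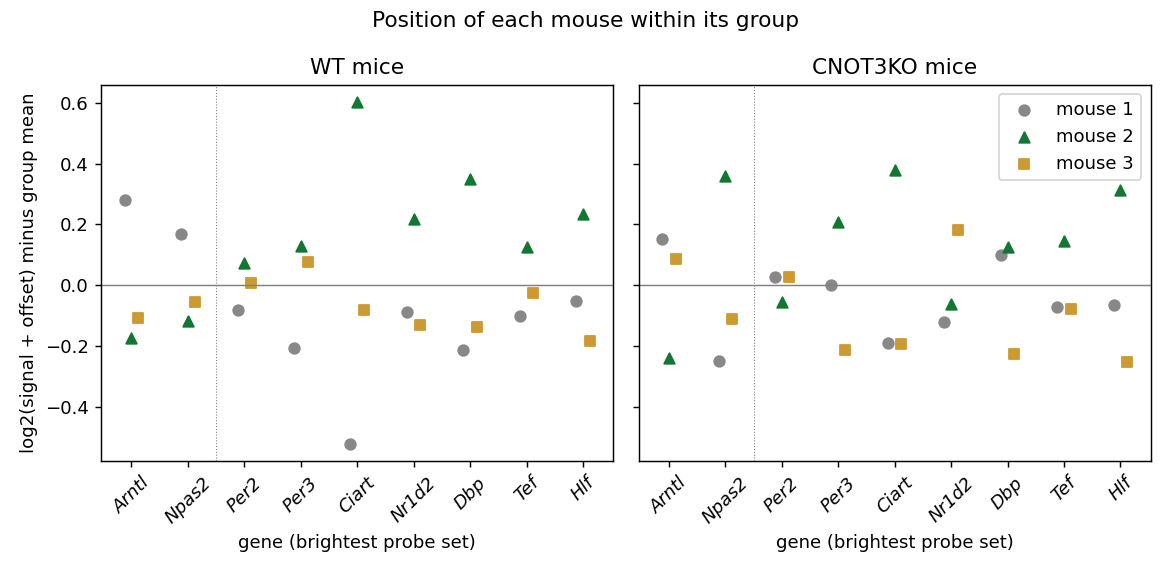
Log2(signal + offset) of each mouse minus the mean of its own group, for Arntl, Npas2 and the 7 lower genes (brightest probe sets), WT in the left panel and CNOT3KO in the right. Mouse 2 (green triangles) is lowest for Arntl in both panels and highest for all 7 lower genes in WT and for 5 of them in CNOT3KO, while for Npas2 it is lowest in WT and highest in CNOT3KO.

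Clock pathway genes outside the 10 were tested. A list of 48 such genes in 4 groups had 40 tested, and limma over all 12769 genes called 1 higher and 13 lower (Benjamini-Hochberg adjusted p under 0.05), with 26 not past the threshold. Of all genes tested 23.2% were called higher and 16.9% lower, or 2959 and 2156 genes. That split was 2318 and 2800 with each array centred on its median, where the clock list had 1 higher and 15 lower. The median log2 difference was -0.21 for the 40 genes and 0.02 for all genes. The lists were chosen with earlier results of these arrays known, so nothing is read from their counts or their median. The count of 14 calls became 9 without WT mouse 2 and 8 without mouse 2 of both groups.

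Among the other core factors, 9 of 12 were tested, 1 rose and 2 fell. Per1, the remaining Per gene, read 1565, 1946 and 1732 in WT and 991, 969.6 and 726 in CNOT3KO, all lower, and fell by 0.95 on the log2 scale (SE 0.14, limma adjusted p = 0.00077). It kept its call in all 19 other settings. Timeless, whose product in mammals also serves DNA replication, rose by 0.77 on the log2 scale (SE 0.16), from 227 ± 44.9 to 399 ± 48.96 (SD, n = 3 each), with a limma adjusted p of 0.0052, and both its probe sets were wholly higher. Rora, an activator at the RORE, fell by 0.41 (SE 0.14, limma adjusted p = 0.046) by its brightest probe set, and 2 of its 9 probe sets were wholly lower. That call was lost without WT mouse 1, 2 or 3 (log2 -0.45, -0.43 and -0.35), without CNOT3KO mouse 1 or 2 (-0.43 and -0.27), by averaging its probe sets (-0.12), and without the filter (adjusted p = 0.067), without the variance trend (0.075) and without mouse 2 of both groups (-0.29).

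Nr1d1, which encodes REV-ERBα and shares its targets with Nr1d2, read 324, 529 and 472 in WT and 474, 398 and 356 in CNOT3KO. These groups overlapped, and the difference was -0.09 on the log2 scale (limma adjusted p = 0.74). The cryptochromes, partners of the PER proteins, did not pass either: Cry1 read 413 ± 45.7 and 351 ± 44.5 (log2 -0.23, SE 0.14), and Cry2 924 ± 126 and 1044 ± 185 (log2 0.16, SE 0.16). Nor did Bhlhe40, a competitor at E-boxes (-0.23, SE 0.24), Nfil3, the repressor at D-boxes (-0.25, SE 0.21), or Arntl2, a relative of Arntl (-0.09, SE 0.31). Bhlhe40 rested on single WT mice, at -0.51 without WT mouse 1 and 0.02 without WT mouse 2, and passed with array weights (-0.56). Rorb (22.9 ± 12.2 against 43.5 ± 10.2) and Bhlhe41 (51.7 ± 7.29 against 37.0 ± 18.04) were too dim to be tested. A call in 1 gene and none in another does not show that Nr1d1 and Nr1d2, or Cry1 and Per1, differed in response, and those differences were not tested.

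Of 11 tested kinases, ubiquitin enzymes and related regulators of clock proteins, 5 fell and 0 rose. Usp2, a deubiquitinase whose own mRNA is rhythmic in many tissues, fell from 1110 ± 157 to 600.3 ± 75.2 (log2 -0.86, SE 0.14, limma adjusted p = 0.0013). Csnk1e, a kinase that marks PER proteins for degradation, fell from 1090 ± 53.9 to 631 ± 70.2 (log2 -0.77), and Huwe1, a ubiquitin ligase, by 0.64. Prkaa1, the AMP-activated kinase subunit that acts on CRY1, fell by 0.54, a call lost without WT mouse 1 or 2 (-0.50 and -0.44) or CNOT3KO mouse 2 (-0.46), and without mouse 2 of both groups (-0.36). Gsk3b, a kinase of several clock proteins, fell by 0.29 and lost its call without WT mouse 1, 2 or 3 (-0.31, -0.30 and -0.26), without CNOT3KO mouse 1 or 3 (-0.25 and -0.28), with the replicate block (limma adjusted p = 0.057), without the variance trend (0.070) and without mouse 2 of both groups (-0.35).

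Of 11 tested cofactors 4 fell and 0 rose. Ppargc1a, a coactivator of ROR proteins, fell from 250.001 ± 65.1 to 101 ± 15.5 (log2 -1.11, SE 0.21, limma adjusted p = 0.0025). Hdac3, the deacetylase that works with REV-ERB proteins, fell by 0.60, Kmt2a, a histone methyltransferase, by 0.51, and Sirt1, a deacetylase, by 0.44. Kmt2a was not called after averaging its probe sets (-0.33) or without mouse 2 of both groups (-0.51), nor Sirt1 without WT mouse 2 (-0.36) or mouse 2 of both groups (-0.37). Of 9 tested rhythmic output genes 2 fell and 0 rose. Tsc22d3, a leucine zipper gene induced by glucocorticoids, fell by 0.59, but was at -0.18 and not called when its probe sets were averaged. Its brightest probe set is of type _a, and the gene did not enter the test when types _a, _s and _x were avoided. Tspan4, a tetraspanin, fell by 0.38, and that call was lost without WT mouse 2 or 3 (-0.33 and -0.29) or any 1 of the CNOT3KO mice (-0.31, -0.43 and -0.41). It was also lost without the filter (limma adjusted p = 0.074), without the variance trend (0.084), in the table of averaged probe sets (0.058) and without mouse 2 of both groups (-0.38). Nampt, not called in the main fit (log2 -0.31, limma adjusted p = 0.088), was called lower in 4 of 19 other settings. It was at -0.83 when its probe sets were averaged (limma adjusted p = 0.00023). Coq10b, at -0.26 and not called, was called lower in 3, and was at -0.49 when averaged (limma adjusted p = 0.014). Alas1, Noct and Ppara were not called, but each was called higher in 1 other setting.

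**Figure D4:**
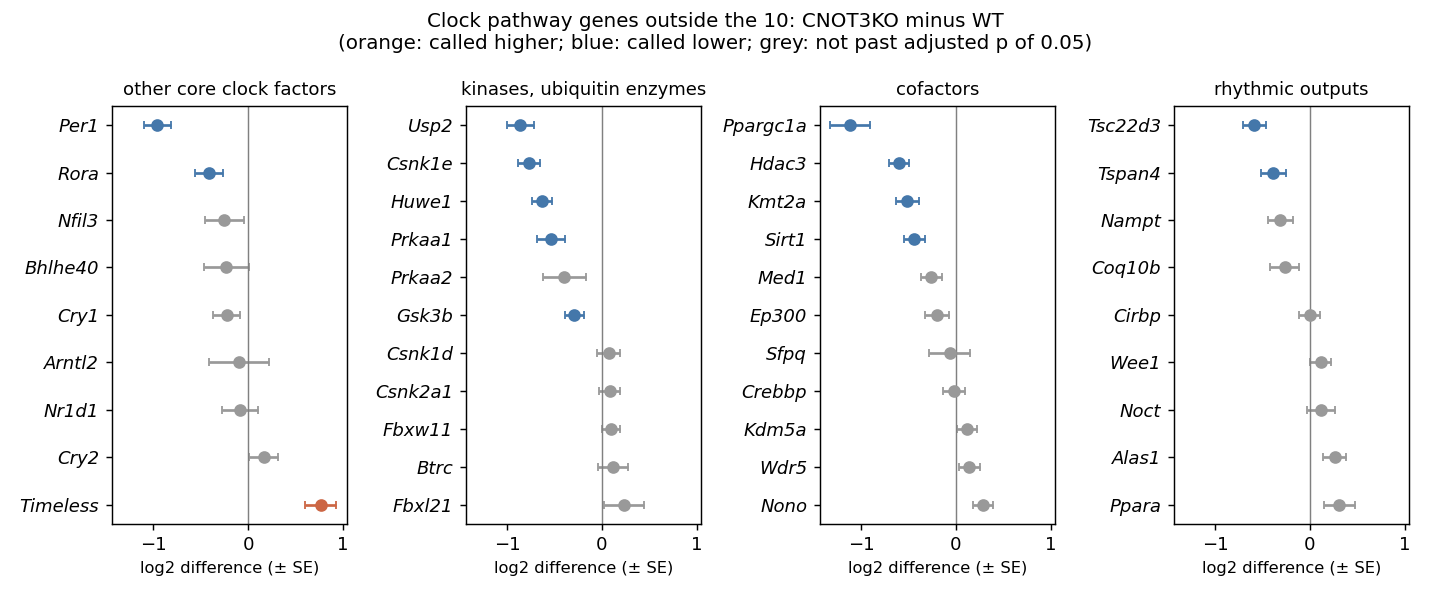
Log2 differences (CNOT3KO minus WT, with SE) of the 40 tested clock pathway genes outside the 10, in 4 panels by role. Blue points were called lower (13 genes), the orange point, Timeless, was called higher, and grey points did not pass the adjusted p of 0.05.

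The genes whose array-by-array pattern was most like that of Arntl and of Dbp were found among the 12769 tested genes by the root mean square difference of log2 values over the 6 arrays, each gene centred on its WT mean. Nearest to Dbp were Slc2a13 (0.09), Papss2 (0.12), Per3 (0.15), Lgals12 (0.16) and Thbd (0.16), so 1 of the 5 was another of the clock genes. Slc2a13, a myo-inositol transporter, read 679, 890 and 732 in WT and 242, 228 and 205 in CNOT3KO. Nearest to Arntl were Srpx2 (0.10), Fam122b (0.11), Leo1 (0.12), Lss (0.13) and Prim1 (0.14), none of them a clock factor on these lists. Srpx2 read 554, 450.2 and 482 in WT and 2005, 1722 and 2046 in CNOT3KO. With 6 arrays in 2 groups, a like difference between the groups lowers this measure by construction. Dbp and Per3 were both picked with their lower knockout values in view, so nothing is read from their nearness.

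The genotype and the makeup of the tissue were checked on the same arrays. Cnot3 fell from 301 ± 7.02 to 201 ± 25.6 (log2 -0.54, SE 0.14, limma adjusted p = 0.013). Adipocyte markers were bright in all arrays, with Adipoq at 28794 ± 6538 in WT and 26934 ± 4407 in CNOT3KO. Of 11 tested adipocyte markers 5 fell and 0 rose, and the log2 differences of those 5 ran from -1.29 (Acvr1c) to -0.51 (Plin4). The summed signal of all 11, which includes the bright markers that were not called, ran from 158240 to 199653 in WT and from 137761 to 164439 in CNOT3KO. Plin1 and Cfd were not analysed here. Of 15 macrophage markers 13 rose and 0 fell, with sums of 31895 to 39950 in WT against 66295 to 98794, and Adgre1 at 1069 ± 232 against 4105 ± 952. Cd163 was wholly lower in CNOT3KO but was not called (log2 -0.71, SE 0.28, limma adjusted p = 0.066). Of 12 endothelial markers 11 fell, with sums of 13843 to 14146 against 5614 to 6716, and Cdh5 at 1723 ± 430.2 against 566 ± 133. Mural markers (4 of 7) and mesothelial markers (4 of 6) also fell in part, with 1 mural marker higher, progenitor markers went both ways (4 higher and 2 lower of 9), and lymphocyte markers held 1 call each way among 6. Epididymal epithelium markers summed to at most 264 in WT and 298 in CNOT3KO, with 1 of 2 tested higher. No marker was at the floor of the scale in all 6 arrays. In whole tissue fewer cells of a type and less RNA per cell cannot be told apart. The part of these shifts in the clock gene values was not tested.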

How the data were processed

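RNA from 6 fat pads was extracted with Isogen II and 500 ng of each was labelled with biotin, per the labels' protocols. The authors deposited signal intensities on a linear scale, which the submitters' processing notes credit to MAS5. For its version and scaling target nothing is stated in the sources used here. Means trimmed by 2% at each end agreed between arrays within 0.0701%, medians ran from 82.1 to 92.9, and precision is limited by there being 6 arrays. Gene names came from the platform annotation (34945 of 45037 probe sets with 1 name, 932 with several, 9160 unnamed here).

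The test was limma (3.58.1, R 4.3.3; lmFit, eBayes with trend, two-sided) on log2(signal + 22.5), where 22.5 is the 25th percentile over all arrays, on the brightest named probe set of each gene, at or above the 40th percentile of mean signal (51.6). This left 12769 of 18193 genes, with Benjamini-Hochberg adjustment over them all. Standard errors of the 27 probe sets came from the same model over all probe sets. The script was tested on simulated data. The fit rests on 4 residual degrees of freedom per gene, and the labels name separate mice.

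The members, gene lists and alternatives were chosen with earlier results of these data known. Named genes were all members, all tested genes of the other core factors, up to 4 called genes with the largest difference in each other list, the 5 nearest in pattern to Arntl and Dbp, and Adipoq, Adgre1, Cdh5 and Cnot3. Gsk3b, which completes a count of 5, was added after its value was seen, as was the setting without mouse 2 of both groups. Nampt, Coq10b, Alas1, Noct, Ppara, Cd163, Acvr1c and Plin4 were also named after their values were seen. Same-numbered mice were checked for pairing, and no block was used in the test. Groups of 3 are too small for a test of outliers.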

Additional observations from a re-analysis of the deposited data

How the results depend on the processing

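Over 18 planned settings and 1 added after seeing the data, the log2 differences of 9 of the members kept their sign, Clock being the exception. Most settings could not have changed these signs. The brightest probe sets of the 9 had separate groups, so leaving out mice or changing the offset keeps the sign. The filter, variance trend, array weights and replicate block left the member differences at their main values. Nothing is read from the kept signs. Arntl ranged from 0.11 (its dim probe set, when probe set types _a, _s and _x were avoided) to 2.07 (offset 1), and Npas2 from 0.79 to 2.65 with the offset. The 5115 genes called in all stayed within 1.5 times under each planned setting, between 3820 and 4636 when 1 array was left out, and were 3246 without mouse 2 of both groups. The clock pathway genes called, 14 of 40, ranged from 9 to 15 with 1 array left out, were 20 with array weights and 8 without mouse 2 of both groups. Over all settings 0 of the 40 turned direction with a call, while 35 results of these genes lost a call and 16 gained one. With arrays centred on the median of tested genes the calls split into 2318 higher and 2800 lower, against 2959 and 2156, and the median of all genes moved from 0.02 to -0.07. With the mouse number as a replicate block 5092 genes and 13 clock pathway genes were called. Deviations of same-numbered mice correlated at 0.07, 0.11 and 0.04, so the numbers were not taken as pairs, although each mouse correlated best with its own number. Gsk3b was the one call named here that the block ended. Dim probe sets limit Npas2 and the dimmest probe sets of Arntl, Per2, Per3, Tef and Nr1d2.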
